A study of Mus musculus with 10 samples.

Results

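A small set of blood endothelial cell (BEC) barcodes of mouse ear skin carried transcripts of *Lrat* and *Apcdd1* and, by the rule that chose them, few transcripts of a fixed set of arterial, venous, and capillary genes. They were chosen by their own UMI counts, with the same limits in both droplet libraries (a UMI counts 1 captured transcript molecule). A BEC barcode had at least 500 detected genes, at most 10% mitochondrial UMIs, at least 1 UMI of *Flt1*, at most 1 of the lymphatic gene *Prox1*, at most 1 of the mural genes *Pdgfrb*, *Kcnj8*, and *Vtn* together, and at most 2 of *Col1a2*. The chosen barcodes also had under 3 UMIs of *Gkn3*, *Sema3g*, and *Gja5* (arterial), under 3 of *Ackr1*, *Selp*, and *Sele* (venous), under 4 of *Car4*, *Gpihbp1*, *Timp4*, *Aqp7*, and *Tcf15* (capillary), and at least 2 of *Lrat* and *Apcdd1* together. These limits gave 78 Lrat Apcdd1 barcodes of 2908 BEC barcodes and of 9016 barcodes in all, 43 in the IgG and 35 in the Ang2 Ab library.

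Both libraries came from the ear skin of wild-type C57Bl/6j pups, and the cells were sorted on CD31 with stains for podoplanin, CD45, and TER-119. The treatments were control IgG for one library and, for the other, an antibody that blocks angiopoietin-2 (Ang2 Ab), at 20 mg/kg every 3 days from P16 to P21. "Control" also stands in the title of the Ang2 Ab library, and the age label runs from P1 to P21, so its group was taken from the treatment label. The number of pups behind a library was not given in the sources used here.

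*Lrat* (chromosome 3 of GRCm38, 82892579 to 82903973) encodes lecithin retinol acyltransferase, which esterifies retinol for storage. *Apcdd1* (chromosome 18, 62922231 to 62961179) encodes a membrane protein that inhibits Wnt signaling and is itself induced by it. Skin BECs line arteries, capillaries, and veins, and genes such as *Fabp4* and *Cd36* serve the fatty acid uptake for which capillary endothelium is known.

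Each condition had 1 library, so there is no test here and no count of replicates. Levels are in CPM, the UMIs of a gene summed over barcodes and scaled to their total UMIs, and their exact 95% Poisson intervals, like those of ratios and shares, cover counting error only. The choice rested on these same counts, so differences in the genes of the rule are its result, and every other difference from other BECs is a description. The IgG library held 42337184 UMIs in 4685 barcodes and the Ang2 Ab library 31720670 UMIs in 4331 barcodes. Of the barcode sequences, 5 occurred in both libraries, and none of the chosen barcodes was shared.

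Not all of the 78 were endothelial. Of them, 4 (3 IgG and 1 Ang2 Ab) had more UMIs of 7 keratinocyte genes (*Krt5*, *Krt14*, *Krt10*, *Krt1*, *Krt15*, *Dsp*, and *Sfn*) than of 13 pan-endothelial genes. Their keratinocyte UMIs were 752, 581, 178, and 111, and their pan-endothelial UMIs were 23, 3, 5, and 3. Each entered through *Apcdd1*, with no *Lrat* UMI. One of them held 164767 UMIs, of 476447 UMIs in the 43 IgG barcodes. The other 74 barcodes (40 IgG and 34 Ang2 Ab) had at most 1 keratinocyte UMI and 10 to 161 pan-endothelial UMIs. Values are therefore given for the 74 unless all 78 are named, and those of all 78 follow for the genes and lists that each comparison turns on. The same limit removed 6 other BEC barcodes from the comparison.

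**Figure D1:**
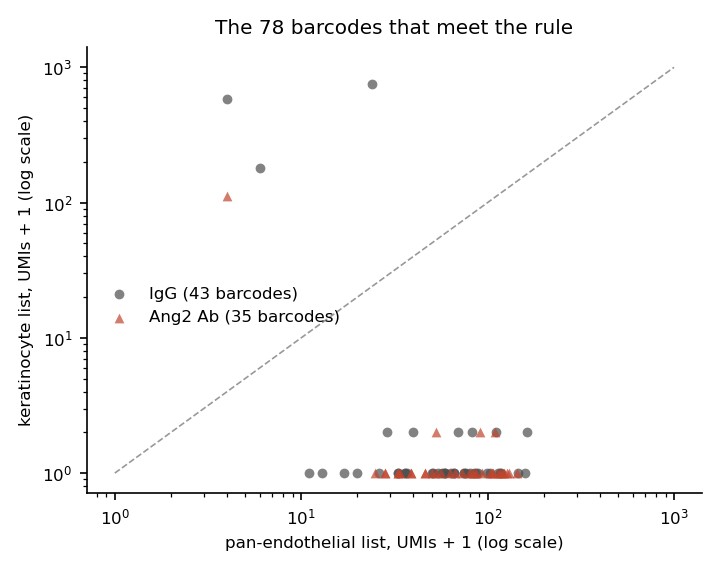
Each point is 1 of the 78 chosen barcodes, with its summed UMIs of 13 pan-endothelial genes (x) and of 7 keratinocyte genes (y), both plus 1 on log axes. The 4 points above the dashed line of equality, 3 IgG (grey circles) and 1 Ang2 Ab (red triangle), had 111 to 752 keratinocyte UMIs, and the other 74 had at most 1.

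In the 74, all 13 pan-endothelial genes were detected in both libraries, with 9755 (IgG) and 10465 CPM (Ang2 Ab) in sum, against 10946 and 11383 CPM in the other BECs. The median ratio to the other BECs over these genes was 1.04 and 0.963, beside 0.974 and 0.975 over all 10353 genes with at least 100 UMIs. *Pecam1*, which encodes CD31, was at 1553 and 2149 CPM. Over all 78 the sums were 5774 and 9819 CPM.

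Markers of other cells were not all lower in the 74 than in the other BECs. Immune genes summed to 17.9 and 24.7 CPM (7.34 and 32.0 in the other BECs), all of it *Cd74*, and *Ptprc* was at 0 in both libraries. Of the 8 lymphatic genes, 7 were detected and summed to 273 and 201 CPM (277 and 223 in the other BECs), led by *Thy1* at 111 and 94.5 CPM, with *Pdpn* at 0. The mural list summed to 506 and 657 CPM (576 and 618 in the other BECs), and *Tagln* made up 466 and 620 CPM of it. At least 5 mural UMIs were found in 15 of the 74 barcodes, up to 68 in 1 barcode. The fibroblast list summed to 96.8 and 28.8 CPM (71.3 and 54.3 in the other BECs), with *Pdgfra* at 0. The red blood cell list was at 499 and 152 CPM, below the 2561 and 1774 CPM of the other BECs. The cartilage and fat list summed to 32.3 and 8.22 CPM (8.02 and 6.72 in the other BECs), led by *Col2a1* at 17.9 and 8.22 CPM. The Schwann and melanocyte list summed to 7.17 and 8.22 CPM (10.1 and 5.46 in the other BECs). The part of these transcripts in the results was not tested.

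Both libraries were labelled male, and both held *Xist* as well as Y-linked transcripts. In the IgG library 60.0% of the 40 barcodes had *Xist* UMIs only and 22.5% had Y-linked UMIs only. In the Ang2 Ab library the shares were 26.5% and 52.9% of 34 barcodes. Among all BECs they were 52.0% and 25.8% (IgG) and 36.5% and 40.4% (Ang2 Ab). The shares of *Xist* and Y-linked barcodes therefore moved with the antibody, and values within each kind of barcode are given below for the named genes past 2-fold in that comparison.

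The chosen barcodes made up 3.06% of the BEC barcodes in the IgG library (43 of 1405; exact binomial 95% interval 2.22% to 4.10%) and 2.33% in the Ang2 Ab library (35 of 1503; 1.63% to 3.22%). The intervals overlapped, and with 1 UMI of the pair as the limit the shares were 3.77% and 3.86%. Without the keratinocyte barcodes the shares were 2.86% and 2.27%. With every barcode thinned to 3000 UMIs, which left out 281 and 343 BEC barcodes of lower depth, they were 4.95% (3.73% to 6.42%) and 3.22% (2.24% to 4.47%). The zonal limits are absolute UMI counts, so the set also depends on the depth of a barcode.

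Most BEC barcodes with *Lrat* and *Apcdd1* transcripts lay outside the set. At least 2 UMIs of the pair were found in 219 IgG and 144 Ang2 Ab BEC barcodes, 15.6% and 9.58% of them. Of these 363, 160 were past the capillary limit, 66 past the venous limit, 18 past the arterial limit, and 41 past more than one. The share with at least 2 UMIs was 27.3% of venous, 13.4% of capillary, and 8.41% of arterial barcodes in the IgG library, and 14.8%, 8.04%, and 8.74% in the Ang2 Ab library. The zones also differed in median depth, in that order 12152.5, 8317, and 6066 UMIs (IgG) and 9797.5, 7325.5, and 7144 UMIs (Ang2 Ab). The part of depth in these shares was not tested. Lymphatic barcodes (at least 2 *Prox1* UMIs) showed 3.19% and 3.61%, at a median depth of 12543.5 and 11703 UMIs, against 7666 and 6590 UMIs in BECs. Lymphatic barcodes had an *Lrat* UMI in 2.05% and 1.20% of cases and an *Apcdd1* UMI in 7.67% and 7.50%. Whether these UMIs were free RNA or lymphatic expression was not tested.

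*Lrat* and *Apcdd1* were found together in 41 of the 74 barcodes, *Lrat* alone in 20, and *Apcdd1* alone in 13. The sum of both had a median of 4 (IgG) and 3 UMIs (Ang2 Ab) and a maximum of 26 and 16. Over all BECs without keratinocyte barcodes, thinned to 3000 UMIs, *Apcdd1* was detected in 36.2% of 116 IgG barcodes with an *Lrat* UMI (27.5% to 45.6%) and in 5.15% of 951 without one (3.84% to 6.75%). In the Ang2 Ab library it was detected in 29.0% of 93 (20.1% to 39.4%) and 3.22% of 962 (2.20% to 4.54%). The unthinned shares were 51.8% and 7.37% (IgG) and 45.6% and 5.57% (Ang2 Ab). The share was higher beside *Lrat* in both libraries, and the intervals cover counting error only. The pair was chosen with earlier results of these data known, so these shares are a description and not a test of the set.

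When *Lrat* alone chose the barcodes (at least 2 UMIs, 29 and 24 barcodes), *Apcdd1* was at 248 CPM in the IgG library, 6.87-fold (5.07 to 9.16) the level of the other BECs. In the Ang2 Ab library it was at 138 CPM, 6.37-fold (4.08 to 9.56). When *Apcdd1* alone chose them (24 and 14 barcodes), *Lrat* was 6.06-fold (4.8 to 7.58) and 9.23-fold (6.43 to 12.9) higher. Each gene was thus higher in barcodes that the other had chosen, in both libraries. Both are genes of the rule, so this too is a description.

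*Slc39a10*, *Scarb1*, and *Cxcl12* were named as markers of these cells with earlier results of these data known, and the rule did not use them. *Slc39a10*, a zinc importer, was at 674 CPM (581 to 778) in the 40 IgG barcodes and 616 CPM (522 to 723) in the 34 Ang2 Ab barcodes. Capillary barcodes had 192 and 166, arterial barcodes 255 and 329, venous barcodes 108 and 135, and lymphatic barcodes 38.6 and 38.2 CPM of *Slc39a10*. It was detected in 34 of 40 and 31 of 34 barcodes. The ratio to the other BECs was 3.75 (3.22 to 4.36) and 3.41 (2.87 to 4.02). Among these whole classes, the level of *Slc39a10* was highest in the chosen barcodes in both libraries. Arterial barcodes with at least 2 UMIs of *Lrat* and *Apcdd1* were higher, at 908 and 1004 CPM.

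*Scarb1* encodes the HDL receptor SR-B1. It was at 2435 CPM (2255 to 2625) and 2995 CPM (2782 to 3221), against 1122 and 1116 in capillary, 1340 and 1842 in venous, and 266 and 308 CPM in arterial barcodes. The ratio to the other BECs was 2.34 (IgG) and 2.66 (Ang2 Ab) for *Scarb1*. *Cxcl12*, the chemokine ligand of CXCR4, set the chosen barcodes apart less. It was at 2589 CPM (2404 to 2785) and 2194 CPM (2012 to 2388), and capillary barcodes were at 2402 and 2031 CPM, inside or just below these intervals. Venous barcodes had 321 and 565 and arterial barcodes 1603 and 1531 CPM of *Cxcl12*, and its ratio to all other BECs was 1.32 and 1.17. With the 4 keratinocyte barcodes the IgG ratio of *Cxcl12* was 0.778, below 1.

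**Figure D2:**
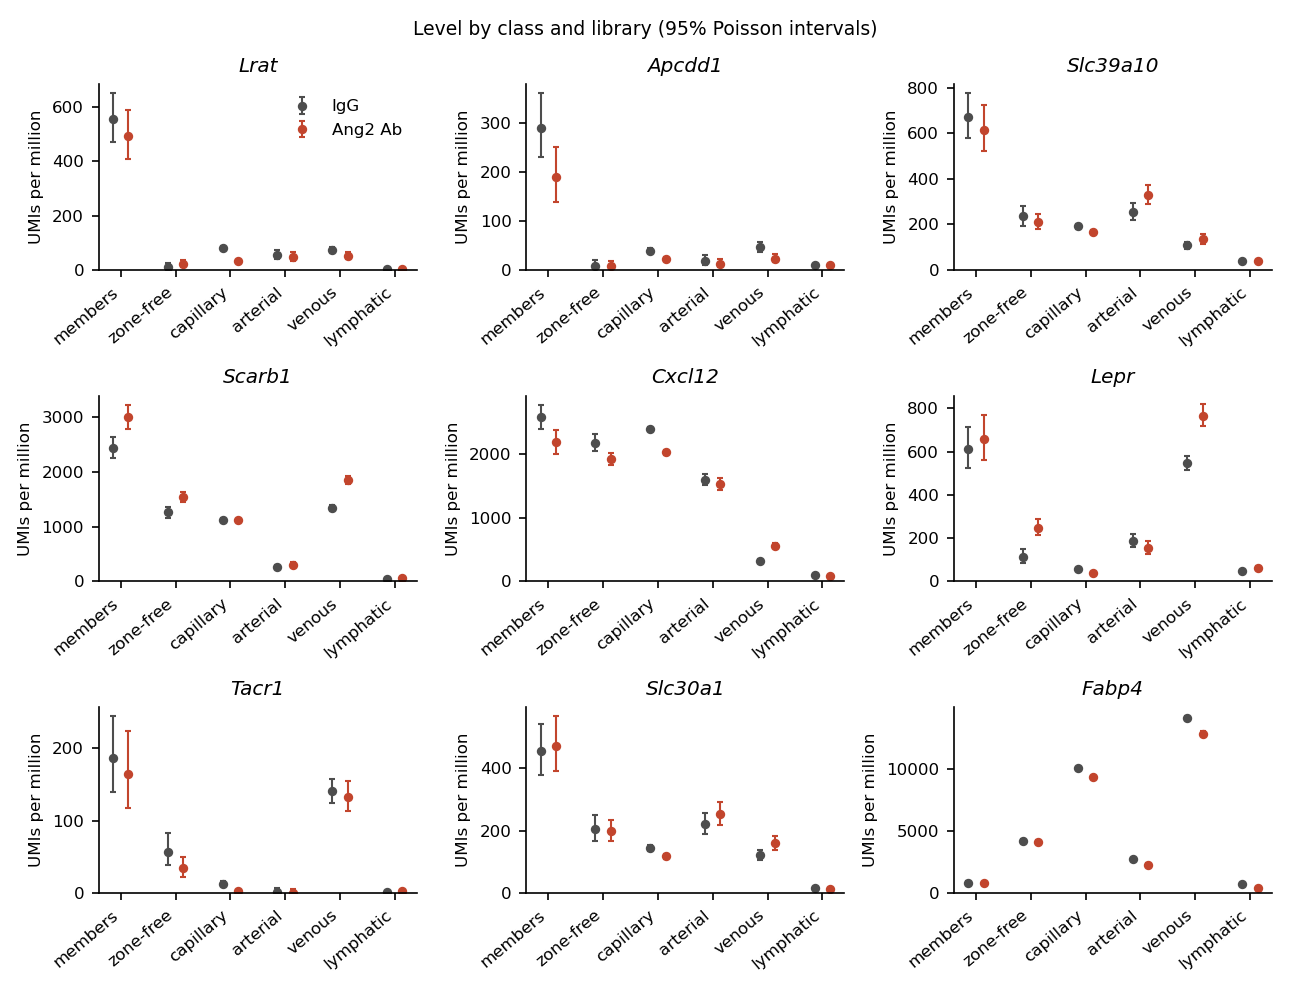
Level of 9 genes in CPM (y) by class of barcode (x) for the IgG (grey) and Ang2 Ab (red) library, with 95% Poisson intervals and without keratinocyte barcodes. Members are the 74 Lrat Apcdd1 barcodes, zone-free barcodes meet the same limits with under 2 UMIs of *Lrat* and *Apcdd1*, and lymphatic barcodes have at least 2 *Prox1* UMIs. Among these classes, *Slc39a10* and *Slc30a1* were highest in the members in both libraries, and *Lepr* and *Tacr1* were high in the members and in venous barcodes. The zonal classes were not limited to barcodes with at least 2 UMIs of *Lrat* and *Apcdd1*.

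Past the markers, genes not used by the choice were ranked by the lower of their 2 ratios to the other BECs, with at least 50 CPM in the chosen barcodes of both libraries. Without the keratinocyte barcodes the first was *Tacr1*. *Tacr1*, the receptor of substance P, was at 186 and 164 CPM, 5.00-fold (3.67 to 6.67) and 7.08-fold (4.95 to 9.91) the level of the other BECs. Venous barcodes had 141 and 133 CPM of *Tacr1*, within the intervals of the chosen barcodes, and capillary barcodes 12.9 and 2.98 CPM. *Lepr*, the leptin receptor, was at 613 and 657 CPM, 3.51-fold and 4.00-fold higher. It stood at 545 and 766 CPM in venous and at 56.9 and 38.3 CPM in capillary barcodes, so *Lepr* marked both the chosen and the venous barcodes. *Lepr* was uneven within the set. The IgG barcode with most *Lepr* UMIs (27) had 4 of *Cxcl12* and 18 mural UMIs. That with most *Cxcl12* UMIs (57) had 0 of *Lepr*. With Ang2 Ab, barcodes with 19 *Lepr* UMIs had 25 and 68 mural UMIs, and that with most *Cxcl12* (66) had 1 *Lepr* UMI. Another IgG barcode had 18 *Lepr* UMIs and 1 mural UMI. *Tacr1* was detected in 17 of 40 and 11 of 34 chosen barcodes and *Lepr* in 27 and 29.

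*Slc30a1*, which exports zinc across the plasma membrane, was at 455 and 473 CPM, 3.07-fold (2.55 to 3.68) and 3.24-fold (2.66 to 3.92) higher. Capillary barcodes had 144 and 117 CPM of *Slc30a1* and arterial barcodes 221 and 252 CPM. *Ahr*, the ligand-activated transcription factor of xenobiotic responses, was 3.21-fold and 3.83-fold higher, at 265 and 255 CPM. *Galnt15*, which starts O-glycan chains, was 2.69-fold and 2.52-fold higher at 642 and 653 CPM. *Htr2a*, a serotonin receptor, was 2.64-fold and 3.01-fold higher, and *A4galt*, the synthase of the glycolipid Gb3, 2.86-fold and 2.91-fold.

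Of the others, *Thy1* had 6.93-fold and 4.61-fold the level of the other BECs, but 13 of its 31 IgG UMIs came from 1 barcode. *Map2* (4.76-fold and 3.64-fold), *Susd4* (2.90-fold and 4.94-fold), *Mir100hg* (3.08-fold and 4.49-fold), *Prom1* (3.04-fold and 2.58-fold), *Mctp1* (2.59-fold and 3.03-fold), and *Bnip3* (2.56-fold and 3.4-fold) completed the 15. *Susd4* rested on 14 UMIs in each library, so its intervals were wide (1.56 to 4.98 and 2.63 to 8.59).

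At least 2-fold higher levels in both libraries were found for 120 of 10353 genes (1.16%), and at most 0.5-fold levels for 542 (5.24%). Many of these rested on few UMIs, and the intervals of both libraries left out 1 for 54 of the 120 and 167 of the 542. Over all 78 barcodes the counts were 135 (1.29%) and 532 (5.09%) of 10456 genes. The counts were close, but the leading genes were not. The 15 named over all 78 were *Krt14*, *Adh7*, *Apoc1*, *Ccl27a*, *Krt79*, *Trp63*, *Elovl6*, *Anxa8*, *Mt1*, *Sdc4*, *Fxyd3*, *Apoe*, *Myc*, *Krt15*, and *Thy1*. Of these, 13 were under 2-fold in at least 1 library once the 4 keratinocyte barcodes were left out, and 1, *Thy1*, remained among the first 15.

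The genes that led over the 74 were nearer to the other BECs over all 78, mainly in the IgG library. The ratios (IgG and Ang2 Ab) were then 2.28 and 3.23 for *Slc39a10*, 1.38 and 2.53 for *Scarb1*, 2.06 and 3.79 for *Lepr*, 2.94 and 6.73 for *Tacr1*, 1.81 and 3.08 for *Slc30a1*, and 2.49 and 3.63 for *Ahr*. *Thy1* was at 4.08 and 4.36 and *Map2* at 2.81 and 3.37. *Galnt15*, *Htr2a*, *A4galt*, *Susd4*, *Mir100hg*, *Prom1*, *Mctp1*, and *Bnip3* were between 1.52-fold and 1.98-fold in the IgG library, under 2-fold. Of the genes described by list below, *Tcf7* (1.81) and *Slc2a1* (1.77) were also under 2-fold in the IgG library over all 78, and *Axin2* was not (5.38 and 6.66). *Apoe* was at 5.69-fold and 5.09-fold over all 78.

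**Figure D3:**
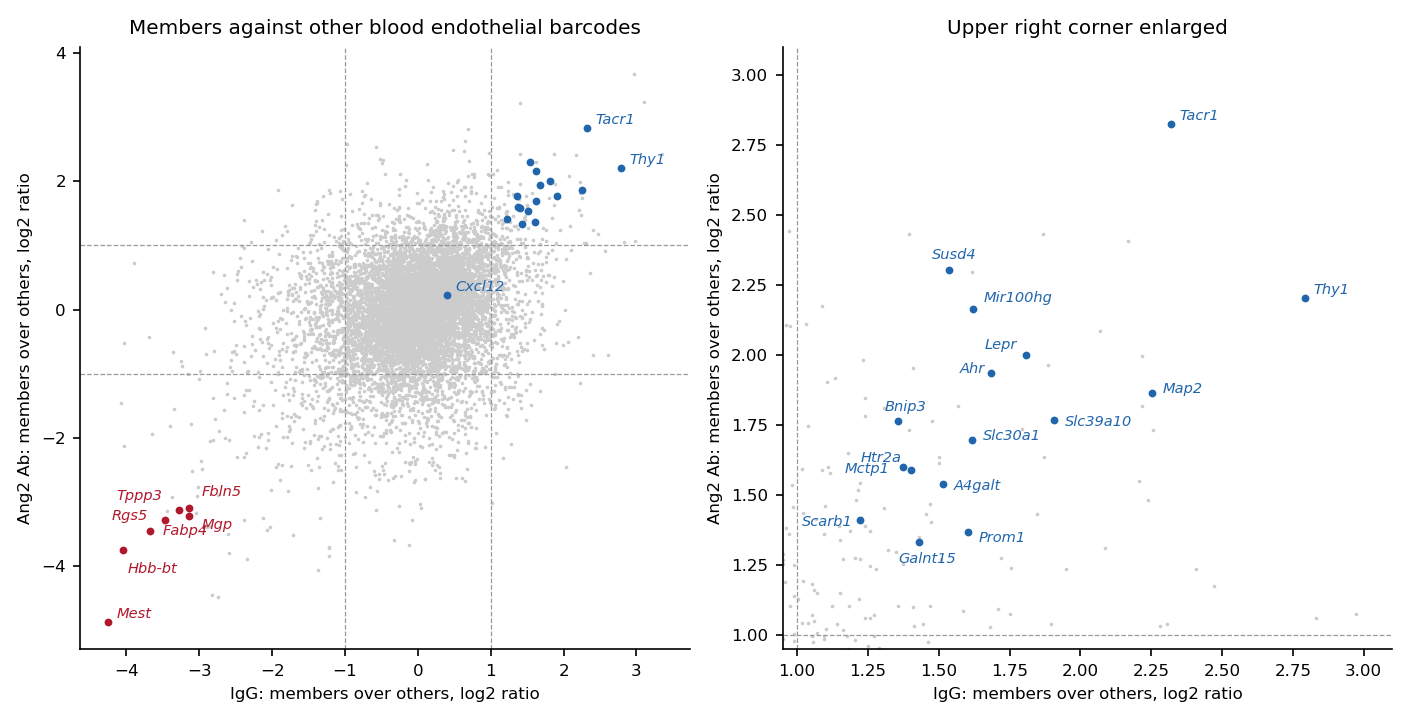
Log2 ratio of the 74 Lrat Apcdd1 barcodes to the other BEC barcodes in the IgG (x) and the Ang2 Ab (y) library, 1 grey point per gene with at least 100 UMIs and at least 1 UMI in the 74 of each library, with the upper right corner enlarged on the right. Dashed lines mark 2-fold. The named higher genes (blue) and *Scarb1* lie past 2-fold in both libraries, and *Cxcl12* lies at 1.32-fold and 1.17-fold. The named lower genes shown (red) lie at or below 0.117-fold in both. *Igf2*, *Kcna5*, and *Lpl*, also named lower genes, had no IgG UMI in the 74 and are not shown.

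The 10 lowest genes included *Fabp4* and *Lpl* of the capillary list, *Fbln5* of the arterial list, *Rgs5* of the mural list, and *Hbb-bt* of the red blood cell list. *Fabp4*, the fatty acid binding protein, was at 821 and 789 CPM against 10523 and 8644 CPM in the other BECs, 0.0780-fold (0.0683 to 0.0888) and 0.0913-fold (0.0788 to 0.105). Without the zonal limits its ratios were 0.626 and 0.303. *Lpl*, lipoprotein lipase, had no UMI in the IgG and 2 in the Ang2 Ab barcodes, against 65.9 and 85.2 CPM in the other BECs. The imprinted growth genes *Igf2* (0 and 1 UMI) and *Mest* (1 UMI in each library) stood against 146 and 154 CPM and 68.2 and 119.9 CPM in the others. *Kcna5*, a potassium channel gene, had 0 and 1 UMI against 55.7 and 83.8 CPM. *Fbln5* (0.113-fold and 0.117-fold), *Mgp* (0.113-fold and 0.107-fold), *Rgs5* (0.0907-fold and 0.103-fold), *Tppp3* (0.103-fold and 0.115-fold), and *Hbb-bt* (0.0606-fold and 0.0744-fold) made up the rest. The lists of capillary, arterial, and venous genes are not independent of the choice, which bars barcodes rich in other genes of those zones. Of 12 further capillary genes, 5 were at most 0.5-fold in both libraries (*Cd36*, *Fabp4*, *Lpl*, *Plpp1*, and *Rgcc*) and none was 2-fold higher, with a median ratio of 0.633 and 0.224. *Cd300lg*, a capillary gene too, was not low, at 1.03-fold and 1.25-fold. Of 12 further arterial genes, *Fbln5* alone was at most 0.5-fold in both libraries and none was 2-fold higher, with a median of 0.948 and 0.654 and a sum of 2708 and 2198 CPM against 3068 and 3222 CPM. Of 10 further venous genes, *Csf2rb* was 2-fold higher and *Vcam1* at most 0.5-fold in both libraries, with a median of 0.733 and 1.14. The venous genes summed to 2797 and 3414 CPM against 2952 and 2165.7 CPM in the other BECs. Outside the genes of the rule, the venous list was thus not low in sum with Ang2 Ab. The capillary list was, at 5085 and 4581 CPM against 16600.1 and 15222 CPM. Of these capillary sums, *Fabp4* alone made up 821 and 789 CPM in the chosen barcodes and 10523 and 8644 CPM in the other BECs. The difference in the capillary sum was thus largely that of *Fabp4*. Over all 78 the sums were 1717 and 3231 CPM (venous), 1830.2 and 2091 CPM (arterial), and 3302 and 4301 CPM (capillary).

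The other genes of retinoid metabolism were then examined. Of 23, 9 had enough UMIs, none was 2-fold higher in both libraries, and 3 were at most 0.5-fold (*Cyp26b1*, *Dhrs3*, and *Rarg*), of which *Dhrs3* and *Rarg* had intervals below 1 in both. The median ratio was 0.782 and 0.943. *Stra6*, the cell-surface receptor for the retinol carrier, and *Aldh1a1*, *Aldh1a2*, and *Aldh1a3*, which make retinoic acid, had no UMI in the 74 barcodes. None of these genes had enough UMIs to be compared, so no lower level than in the other BECs could be detected for them. *Dhrs3*, which reduces retinal to retinol, was at 14.3 and 12.3 CPM against 65.8 and 54.3 CPM in the other BECs. *Cyp26b1*, which degrades retinoic acid, had no UMI against 18.6 and 3.4 CPM. The latter is under the 12.3 CPM that a count of 0 allows (3 UMIs in the Ang2 Ab barcodes), so no lower level could be detected in that library. *Rdh10*, which oxidizes retinol, had 3 and 8 UMIs.

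In the Wnt list, 16 of 30 other genes had enough UMIs, 2 were at least 2-fold higher in both libraries, and none was at most 0.5-fold in both. The 2 were *Axin2* and *Tcf7*, a feedback inhibitor and a transcription factor of the pathway, both known Wnt targets. *Axin2* was at 28.7 CPM against 7.85 (IgG) and 32.9 CPM against 6.09 (Ang2 Ab), 3.65-fold (1.53 to 7.5) and 5.4-fold (2.24 to 11.2), on 8 UMIs in each library. *Tcf7* was 3.07-fold (1.2 to 6.56) and 4.92-fold (2.17 to 9.78) higher, on 7 and 9 UMIs. The median of the list was 1.22 and 1.15. The receptors *Fzd4*, *Fzd6*, *Lrp5*, and *Lrp6* were between 0.673-fold and 1.55-fold, and *Ctnnb1*, which encodes β-catenin, was at 1.33-fold and 1.11-fold.

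Genes of the blood-brain barrier type, which Wnt signaling is known to induce in brain endothelium, were mixed. Of 16, 9 had enough UMIs and 1 was 2-fold higher in both libraries, with a median of 1.61 and 1.26. That gene, *Slc2a1*, the glucose transporter GLUT1, was 2.35-fold (1.38 to 3.78) and 3.95-fold (2.37 to 6.25) higher. The efflux pumps *Abcb1a* (2.11-fold and 1.71-fold) and *Abcg2* (1.71-fold and 2.28-fold) passed 2-fold in 1 library each. *Plvap*, which marks fenestrae and caveolae and is absent from mature brain barrier endothelium, was at 1682 and 1537 CPM, 1.40-fold and 1.89-fold the other BECs. *Mfsd2a* (9 and 0 UMIs) and *Slco1a4* (20 and 0 UMIs) were found in the IgG barcodes alone.

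In the zinc list, 17 of 19 genes had enough UMIs, 3 were at least 2-fold higher in both libraries (*Slc39a10*, *Slc30a1*, and *Mt2*), and none was at most 0.5-fold in both, with a median of 1.12 and 1.14. The other importers and exporters stood nearer to the other BECs, such as *Slc39a1* (1.12-fold and 0.697-fold) and *Slc30a5* (1.49-fold and 1.16-fold). *Mt2*, a metallothionein, had 22 and 3 UMIs, and its Ang2 Ab interval held 1 (0.413 to 6.27). *Mt1* was 6.13-fold higher in the IgG and 0.614-fold in the Ang2 Ab barcodes.

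Of 20 lipid genes, 17 had enough UMIs. *Scarb1* was the only gene 2-fold higher in both libraries, and 5 were at most 0.5-fold (*Cd36*, *Fabp4*, *Fabp5*, *Lpl*, and *Mgll*), with a median of 0.878 and 0.827. *Cd36*, the fatty acid translocase, was at 0.390-fold and 0.254-fold, and *Fabp5* at 0.128-fold and 0.178-fold. *Apoe* was at 1094 CPM against 835 (IgG) and at 1549 CPM against 632 (Ang2 Ab). The capillary limit of the choice bears on *Cd36* and *Fabp4*, which are also in the capillary list. The venous limit bears on *Fabp4* as well. Among barcodes with at least 2 UMIs of the pair, venous ones had 14421.5 and 8507.6 CPM of *Fabp4*. Those with over 4 capillary UMIs had 4668 and 2407 CPM.

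Of 13 chemokine and receptor genes, 10 had enough UMIs and 7 were at most 0.5-fold in both libraries (*Ackr3*, *Ccl2*, *Cxcl1*, *Cxcl2*, *Cxcl9*, *Cxcl10*, and *Cxcl16*). *Ccl2*, *Cxcl2*, *Cxcl9*, *Cxcl10*, and *Cxcl16* had no UMI in the 74, and 4 of the 7 (*Ackr3*, *Cxcl1*, *Cxcl2*, and *Cxcl16*) had intervals below 1 in both libraries. Of 9 VEGF family genes, 8 had enough UMIs and 2 were at most 0.5-fold (*Pgf* and *Vegfc*), *Vegfc* with both intervals below 1. The receptor *Kdr* was at 1.09-fold and 0.898-fold. Among 10 genes of tip cells and vessel growth, 4 were at most 0.5-fold, with *Esm1*, a tip cell gene, at 1 and 7 UMIs. *Vcam1*, which is also in the venous list, had no UMI, while *Icam1* was at 0.464-fold and 1.20-fold. Of 15 basement membrane genes, 3 were at most 0.5-fold, and *Col4a1*, which encodes collagen IV, was at 0.422-fold and 0.367-fold.

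No gene of the angiopoietin, BMP, interferon, or pan-endothelial list was past 2-fold in both libraries in either direction. Of the angiopoietin list, 13 of 16 genes had enough UMIs, with a median of 0.809 and 0.853. Of the BMP list, 14 of 17 had enough UMIs, with a median of 0.890 and 0.926. The receptors *Tek* (1.29-fold and 1.25-fold) and *Tie1* (0.809-fold and 0.709-fold) stayed near the other BECs. Of 16 immediate early and heat shock genes, which tissue dissociation is known to induce, 1 was at most 0.5-fold in both libraries (*Hspa1a*, a heat shock gene), with a median of 0.795 and 0.721. In the cell cycle list 4 of 15 genes were at most 0.5-fold, none of them or *Hspa1a* with both intervals below 1, and the median differed between the libraries (0.191 and 0.982). *Ccnb2* had 0 UMIs in the IgG and 9 in the Ang2 Ab barcodes.

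At the edge of the choice, barcodes that met every other limit with 1 UMI of *Lrat* and *Apcdd1* were compared with chosen barcodes at 2 UMIs. *Slc39a10* was at 352 (IgG, 10 barcodes) and 274 CPM (Ang2 Ab, 22 barcodes) just outside, and at 700.1 (6 barcodes) and 849.5 CPM (10 barcodes) just inside. *Lepr* was at 135 and 262 CPM outside and 700.1 and 520.1 CPM inside, and *Fabp4* at 4845 and 5482 CPM outside and 2908 and 537 CPM inside. The marker *Cxcl12* was not higher inside, at 3113 and 3098 CPM outside and 2908 and 1855 CPM inside. *Apoe* was not higher inside either, at 1381 and 1096 CPM outside and 1023 and 780 CPM inside. At the capillary limit *Slc39a10* was not lower outside. Chosen barcodes with 3 capillary UMIs had 669 and 517 CPM of *Slc39a10*, and barcodes kept out with 4 capillary UMIs had 1165 and 612 CPM. Barcodes well past that limit (over 4 capillary UMIs, with at least 2 of *Lrat* and *Apcdd1*, 88 and 61 barcodes) still had 432 and 552 CPM of *Slc39a10* and 1935 and 1926 CPM of *Scarb1*, with 4668 and 2407 CPM of *Fabp4*. Arterial barcodes with at least 2 UMIs of the pair (9 in each library) had 908 and 1004 CPM of *Slc39a10* and 3904 and 3816 CPM of *Cxcl12*, above the chosen barcodes, and venous ones (47 and 18) had 136 and 199 CPM of *Slc39a10*.

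To see which barcodes resembled the chosen ones in other genes, the 10 nearest BEC barcodes of the same library were found at 3000 UMIs each, without the genes of the rule, the 3 further markers, and sex-linked and mitochondrial genes. Only the distances used 3000 UMIs. The UMIs of *Lrat* and *Apcdd1* and the zonal limits were counted at full depth, and the part of depth in these shares was not tested. Of the neighbors of the chosen IgG barcodes (33 of sufficient depth), 58.2% had at least 2 UMIs of *Lrat* and *Apcdd1*, against 18.2% of all 1117 barcodes compared. Of those of the Ang2 Ab barcodes (30), 39.7% had them, against 11.5% of 1157. The neighbors of capillary barcodes with under 2 UMIs had them in 7.68% and 4.70% of cases. Barcodes with 2 UMIs outside the set had them in 47.5% and 30.6%, venous barcodes with fewer in 24.0% and 14.8%, and zone-free barcodes with fewer in 22.4% and 15.3%, so the higher share was not particular to the chosen barcodes. Other chosen barcodes made up 12.4% and 11.0% of the neighbors, against 2.95% and 2.59% of all. Of the neighbors of the chosen barcodes, 55.8% (IgG) and 44.7% (Ang2 Ab) were past the capillary limit, and 6.97% and 13% were past the venous limit. In both libraries, barcodes with *Lrat* and *Apcdd1* were thus a larger share of the neighbors of the chosen barcodes than of all barcodes compared.

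**Figure D4:**
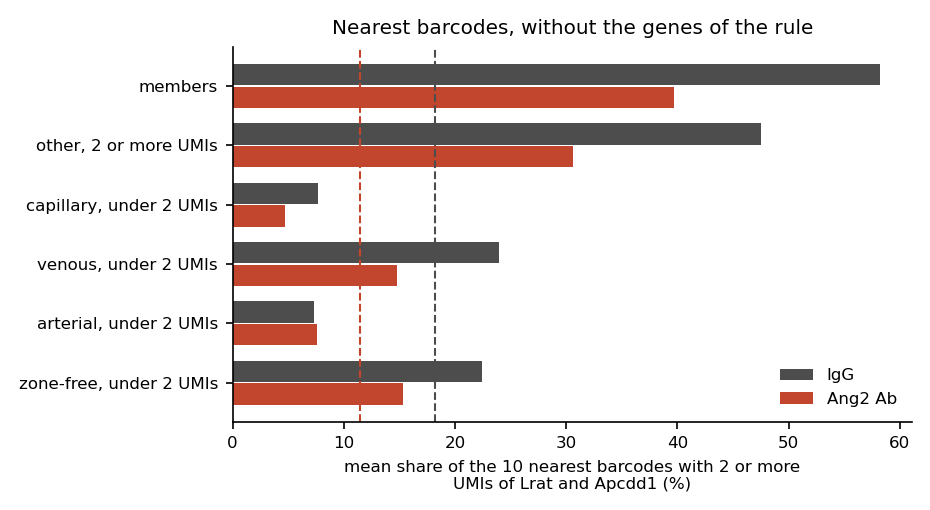
Mean share (x, in percent) of the 10 nearest BEC barcodes that had at least 2 UMIs of *Lrat* and *Apcdd1*, by kind of barcode (y), in the IgG (grey) and Ang2 Ab (red) library. Dashed lines mark the share over all barcodes compared, 18.2% and 11.5%, and the shares around the members were 58.2% and 39.7%.

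The Ang2 Ab and IgG libraries were then compared within the chosen barcodes. Of 817 genes with at least 100 UMIs in the 74, 4 were at least 2-fold higher with Ang2 Ab (0.49%) and 7 were at most 0.5-fold (0.857%), *Xist* among them. In the other BECs, 0 and 2 of the same genes were past 2-fold (0% and 0.245%). With all 78 barcodes the counts were 77 (6.55%) and 97 (8.25%) of 1176 genes, beside 12 (1.02%) and 6 (0.51%) in the other BECs. Over all 78 the lowest genes were led by the epidermal genes *Cst6* and *Krtdap*, and none of the 10 lowest was among the 10 lowest over the 74. The counts thus depended on whether 4 keratinocyte barcodes were in the set. Over the 74 they also moved with the choice of barcodes, to 21 higher and 38 lower genes without the zonal limits, 12 and 10 at 1 UMI of the pair, 6 and 31 with *Apcdd1* alone, 2 and 6 with *Lrat* alone, and 1 and 7 at 3000 UMIs. The median ratio over the 817 genes was 0.991 in the 74 and 0.999 in the other BECs.

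*Angpt2*, which encodes Ang2, had the highest ratio. It had 24 UMIs in the IgG and 79 in the Ang2 Ab barcodes, 86.1 and 325 CPM, a ratio of 3.77 (2.36 to 6.23), against 1.71 (1.56 to 1.87) in the other BECs. *Angpt2* was detected in 10 of 40 and 17 of 34 barcodes, and 34 of the 79 UMIs came from 1 barcode. Without the barcode of most UMIs in each library the ratio of *Angpt2* was 2.71 (1.55 to 4.9), and in barcodes with at most 5% mitochondrial UMIs it was 1.44, under 2-fold. In barcodes with *Xist* UMIs only, 22 UMIs in 24 IgG barcodes stood against 22 in 9 Ang2 Ab barcodes, and in those with Y-linked UMIs only, 1 UMI in 9 stood against 54 in 18. The other 3 genes past 2-fold were *Hes1*, a transcriptional repressor downstream of Notch (2.85), *Tuba1a*, an α-tubulin (2.52), and *Ppp1r12a*, the targeting subunit of myosin phosphatase (2.16). *Hes1* was at 0.933 and *Ppp1r12a* at 0.947 in the other BECs. *Hes1* and *Tuba1a* did not hold when the barcodes were chosen at 3000 UMIs, with ratios of 0.430 and 0.520. With *Apcdd1* alone as the choice they were under 2-fold, at 1.73 and 1.39. *Tuba1a* was also under 2-fold in barcodes with at most 5% mitochondrial UMIs, at 1.85. *Ppp1r12a* was at 1.21 at 3000 UMIs, and without the zonal limits *Angpt2* was at 2.37, *Tuba1a* at 1.12, *Ppp1r12a* at 1.02, and *Hes1* at 0.808.

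The integrin chains *Itgb1* (1.89, 1.41 to 2.53) and *Itga6* (1.83, 1.40 to 2.40), which pair to bind laminin, were also among the 10 highest, against 1.16 and 1.19 in the other BECs. The rest were *Nbeal1* (1.97), *Myadm* (1.93), *Pggt1b* (1.82), and *Slc38a2* (1.80), an amino acid transporter.

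*Cd200*, which encodes a ligand that restrains myeloid cells, had the lowest ratio. It had 238 UMIs in the IgG and 70 in the Ang2 Ab barcodes, 854 and 288 CPM, a ratio of 0.337 (0.254 to 0.442), and was detected in 31 of 40 IgG and 21 of 34 Ang2 Ab barcodes. In the other BECs the ratio of *Cd200* was 0.866 (0.841 to 0.893). It was 0.310 in barcodes with *Xist* UMIs only, 0.379 in those with Y-linked UMIs only, and between 0.284 and 0.831 over 11 other choices of barcodes. The value nearest to 1 was that without the zonal limits, and at 3000 UMIs it was 0.666. *Slc6a6*, the taurine transporter, was at 0.405 (0.295 to 0.55) against 0.769 in the other BECs, and *Nfkbiz*, a regulator of NF-κB, at 0.399 against 0.672. *Pcdh17*, a protocadherin (0.401), *Clu*, which encodes clusterin (0.407), and *Xbp1*, a transcription factor of the unfolded protein response (0.417), were lower in the chosen barcodes and at 1.13, 0.971, and 0.913 in the other BECs. At 3000 UMIs *Clu* (1.84), *Xbp1* (1.06), *Slc6a6* (0.891), and *Pcdh17* (0.686) were no longer below 0.5-fold. Without the zonal limits none of these 6 lower genes was, with *Nfkbiz* at 0.561, *Clu* at 0.738, *Slc6a6* at 0.877, *Pcdh17* at 0.977, and *Xbp1* at 1.07. Other choices also took single genes above 0.5-fold. *Slc6a6* was at 0.606 at 5% mitochondrial UMIs or less, *Xbp1* at 0.808 with *Apcdd1* alone, and *Pcdh17* at 0.529 at 1 UMI of the pair. With *Lrat* alone *Slc6a6* was at 0.519 and *Nfkbiz* at 0.532, and at 3 UMIs of the pair *Nfkbiz* was at 0.535. Within barcodes with *Xist* UMIs only and with Y-linked UMIs only, the ratios were 5.32 and 2.29 for *Hes1*, 5.91 and 1.00 for *Tuba1a*, 0.826 and 1.00 for *Nfkbiz*, and 0.0980 and 0.520 for *Slc6a6*. They were 0.531 and 0.150 for *Pcdh17*, 0.379 and 0.272 for *Clu*, and 0.366 and 0.711 for *Xbp1*. *Tuba1a* was thus at 1.00 in one kind of barcode, and *Nfkbiz* was past 0.5-fold in neither. *Ppp1r12a* had 30 IgG and 16 Ang2 Ab UMIs in barcodes with *Xist* only, a ratio of 1.54, and 3 and 39 UMIs in those with Y-linked UMIs only.

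*Cldn5*, the main claudin of endothelial tight junctions, was at 617 CPM in the IgG and 312 CPM in the Ang2 Ab barcodes, a ratio of 0.506 (0.381 to 0.667). In the other BECs it was at 596 and 753 CPM, a ratio of 1.26 (1.22 to 1.31). Of its 172 IgG UMIs, 37 came from 1 barcode, and without the barcode of most UMIs in each library the ratio was 0.568 (0.416 to 0.768). *Cst3*, a secreted protease inhibitor, was at 5814 and 2946 CPM, a ratio of 0.507 (0.463 to 0.554) against 0.891 in the other BECs. *Ddit4*, an inhibitor of mTORC1, was at 0.507 and *Gbp7*, an interferon-induced GTPase, at 0.524.

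Over all 78 barcodes the 6 named lower genes were no longer at 0.5-fold or below. *Cd200* was at 0.510, *Slc6a6* at 0.529, *Nfkbiz* at 0.546, *Clu* at 0.631, *Pcdh17* at 0.642, and *Xbp1* at 0.763. *Cldn5* was at 0.783 and *Cst3* at 0.794. Of the higher genes, *Angpt2* was at 5.80 (3.66 to 9.49), *Tuba1a* at 3.36, *Ppp1r12a* at 2.51, and *Hes1* at 2.21 over all 78.

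**Figure D5:**
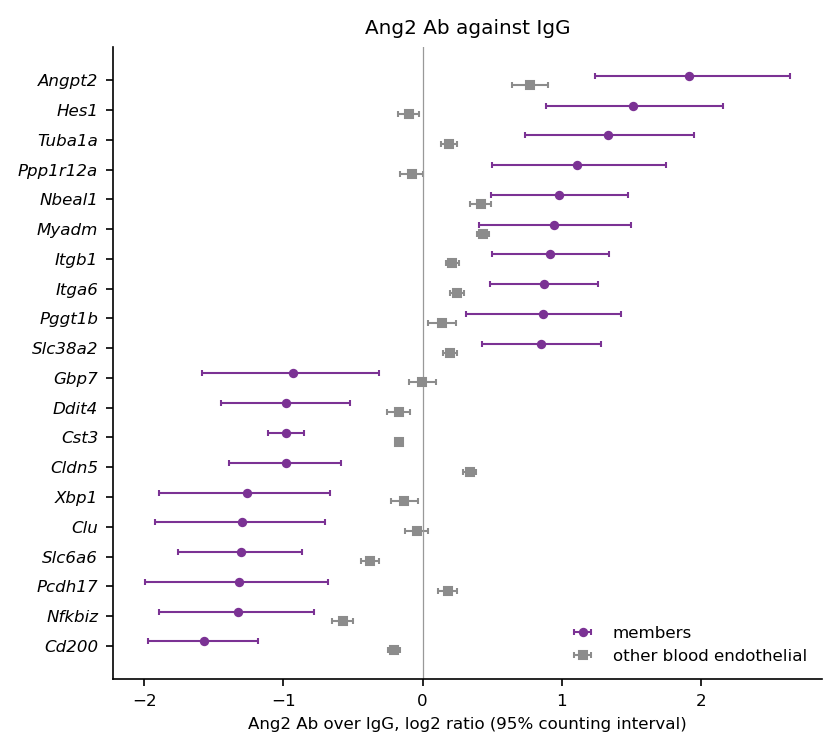
Log2 ratio of Ang2 Ab to IgG (x) in the 74 Lrat Apcdd1 barcodes (purple) and in the other BEC barcodes (grey squares), with 95% intervals of counting error, for the 10 highest and 10 lowest genes (y) with at least 100 UMIs in the 74. *Angpt2* was highest (3.77-fold) and *Cd200* lowest (0.337-fold), and in the other BECs each of these 20 genes lay between 0.672-fold and 1.71-fold.

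The genes that marked the set were also compared between the libraries over the 74. *Slc39a10* had a ratio of 0.914 (0.733 to 1.14), *Lepr* of 1.07 (0.859 to 1.34), *Slc30a1* of 1.04 (0.799 to 1.35), and *Tacr1* of 0.881 (0.569 to 1.36) between Ang2 Ab and IgG, each interval with 1 inside it. *Scarb1* was higher at 1.23 (1.11 to 1.37), and *Cxcl12* lower at 0.847 (0.756 to 0.949). Over all 78 the ratios were above 1, at 1.42 (1.14 to 1.76) for *Slc39a10*, 1.72 (1.37 to 2.14) for *Lepr*, 1.66 (1.28 to 2.15) for *Slc30a1*, 1.961 for *Scarb1*, 1.36 for *Cxcl12*, and 1.41 (0.911 to 2.17) for *Tacr1*. Among the receptors, *Tek* was at 287 and 251 CPM and *Tie1* at 276 and 234 CPM in the IgG and Ang2 Ab barcodes, with ratios of 0.874 (0.616 to 1.23) and 0.848 (0.591 to 1.21). Of 5 FoxO1 target genes with enough UMIs, 1 was past 2-fold (*Angpt2*), with a median of 1.17, and none of 7 basement membrane genes was past it, with a median of 0.994 in the 74 and 1.16 in the other BECs. *Cd93*, an endothelial surface lectin, was at 273 and 394 UMIs, a ratio of 1.65 (1.41 to 1.94) against 1.35 (1.32 to 1.38) in the other BECs. Its ratio without the barcode of most UMIs in each library was 1.74 (1.48 to 2.06).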

How the data were processed

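The authors deposited UMI counts per gene and cell barcode for the 2 droplet libraries, filtered by Cell Ranger (6.0.2 in the file headers, 2.1.1 in the submitters' processing notes) and not normalized. The 8 plates of lymphatic cells were not used here. Members and gene lists were chosen with earlier results of these data known. Counts were summed over barcodes and scaled to CPM with pandas 2.3.3, scipy 1.17.1, and numpy 2.4.6 under Python 3.11.15, and plotted with matplotlib 3.10.9. Intervals are exact 95% Poisson, conditional binomial (ratios), and Clopper-Pearson (shares) intervals, and cover counting error only. The ratio calculation was tested on simulated data. No doublet caller was run. Leaving out the 5% of barcodes with the most UMIs was an alternative.

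Genes compared had at least 100 UMIs in the barcodes compared, and 2-fold or 0.5-fold was the limit of a count. Named genes are those of the lists, the 15 highest and 10 lowest ratios to the other BECs (at least 50 CPM in the higher set of both libraries), and the 10 highest and 10 lowest ratios of Ang2 Ab to IgG, apart from ribosomal, mitochondrial, predicted, *Xist*, and Y-linked genes. The 5 highest and 5 lowest quotients of the Ang2 Ab ratio in members over that in other BECs added *Icam1*. Applying this rule to the set without keratinocyte barcodes, the limit that defines that set, and the values without the barcode of most UMIs were chosen after the data were seen, as were *Cd93*, *Ccnb2*, and the examples from the lists. Neighbors used 2000 variable genes and 20 principal components. Coordinates are those of GENCODE M21 on GRCm38, which holds 32158 of the 32285 gene identifiers in the tables. The paper's Supplemental Methods were not analysed here.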

Additional observations from a re-analysis of the deposited data

Results flagged for a closer look

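Among 716 genes with at least 100 UMIs in the 74 Lrat Apcdd1 barcodes (of 817, after ribosomal, mitochondrial, predicted, *Xist*, Y-linked, and choice genes were left out), 17 had ratios of Ang2 Ab to IgG on opposite sides of 1 in the 2 sets, with neither interval of counting error reaching 1. With 1 library per condition the difference itself was not tested. In the chosen barcodes 9 of these were higher with Ang2 Ab, namely *Hes1* (2.85), *Icam1* (1.67), *Pim3* (1.61), *Il6st* (1.46), *Apoe* (1.42), *Pam* (1.40), *Klf4* (1.28), *Bsg* (1.26), and *Vwf* (1.22). In the other BECs these were at 0.933, 0.647, 0.870, 0.888, 0.756, 0.788, 0.922, 0.935, and 0.676. The other 8 were lower, namely *Pcdh17* (0.401), *Cldn5* (0.506), *Gja1* (0.636), *Myl12a* (0.652), *Klf9* (0.711), *Gng11* (0.748), *Sparc* (0.812), and *Actb* (0.859). In the other BECs these were at 1.13, 1.26, 1.11, 1.10, 1.05, 1.04, 1.04, and 1.16.

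Single barcodes carried part of these values. Of the 70 *Icam1* UMIs with Ang2 Ab, 47 came from 1 barcode, and the ratio without the barcode of most UMIs in each library was 1.11 (0.602 to 2.04). By the same step the interval also reached 1 for *Klf4* (0.955 to 1.53), *Pim3* (0.986 to 2.05), *Vwf* (0.990 to 1.48), *Klf9* (0.564 to 1.07), and *Gng11* (0.608 to 1.01). *Apoe* (1.46, 1.23 to 1.73) and *Il6st* (1.55, 1.27 to 1.90) kept their direction by this step. Over all 78 barcodes 4 of the 17 were on the other side of 1, *Apoe* at 0.639 (0.590 to 0.691), *Actb* at 1.16, *Gng11* at 1.18, and *Sparc* at 1.29, the same side as in the other BECs.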

How the results depend on the processing

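The values below are for all 78 barcodes, with 77 genes at least 2-fold higher and 97 at most 0.5-fold with Ang2 Ab, 135 higher and 532 lower than in other BECs, and shares of 3.06% (IgG) and 2.33% (Ang2 Ab). The Ang2 Ab counts of higher and lower genes were 9 and 20 at 5% mitochondrial UMIs or less, 2 and 6 with *Lrat* alone as the choice, 7 and 21 without the 5% of barcodes with the most UMIs, 1 and 7 at 3000 UMIs, 6 and 2 in barcodes with Y-linked UMIs only, 5 and 23 in those with *Xist* UMIs only, 20 and 52 as a mean of CPM per barcode, 346 and 414 at 30 UMIs per gene, 9 and 22 at 300 UMIs, 272 and 249 at 1.5-fold, and 4 and 7 without keratinocyte barcodes. Higher genes numbered 47 with the median ratio set to 1 and 26 without zonal limits. Against other BECs, higher and lower genes numbered 307 and 959 at 30 UMIs per gene, 46 and 329 at 300 UMIs, and 441 and 1014 at 1.5-fold. Higher genes numbered 206 at 1 UMI of *Lrat* and *Apcdd1*, 225 with *Apcdd1* alone, and 85 at 3000 UMIs, and lower genes 293 without zonal limits. The shares (IgG, Ang2 Ab) were 2.06% and 1.60% with *Lrat* alone, 1.92% and 0.998% with *Apcdd1* alone, 8.59% and 6.34% at 3000 UMIs with 1 UMI of the pair, and 15.6% and 9.58% without zonal limits. The IgG share was 4.95% at 3000 UMIs, and the Ang2 Ab share 1.60% at 3 UMIs of the pair. At 1 UMI the shares were 3.77% and 3.86%, so that of IgG was no longer the higher. Directions of values whose interval left out 1 turned for *Cxcl12* over other BECs in IgG (0.778 over all 78, and 1.13 at 5% mitochondrial UMIs, 1.14 with *Lrat* alone, 1.15 without the most UMIs, 1.53 at 3000 UMIs, 1.08 and 1.06 with Y-linked or *Xist* UMIs only, 1.38 as mean CPM, 1.32 without keratinocyte barcodes, 1.09 without zonal limits) and in Ang2 Ab (0.882 at 1 UMI, 0.978 with *Xist* only). *Thy1* in Ang2 Ab turned to 0.877 with *Apcdd1* alone. With Ang2 Ab, *Hes1* turned to 0.430 at 3000 UMIs and 0.799 without zonal limits, *Tuba1a* to 0.520 and *Clu* to 1.84 at 3000 UMIs, and *Pcdh17* to 1.05 without zonal limits. *Xbp1* (0.763, with 1 inside its interval) was at 1.83 with *Apcdd1* alone, 1.06 at 3000 UMIs, and 1.15 without zonal limits. The cause was not tested. Of 336 values of single genes against other BECs, 156 moved by less than their counting error, 168 by more, and 12 turned, and of 140 with Ang2 Ab, 80, 55, and 5. The alternatives without keratinocyte barcodes and without zonal limits were chosen after seeing the data. No paired analysis was possible because each condition had 1 library. With 522212 UMIs in the 74 barcodes, genes of few UMIs could not be compared.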

Other observations

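Of the genes past 2-fold in both libraries, *Csf2rb*, a receptor subunit for granulocyte-macrophage colony-stimulating factor, was at 319 and 337 CPM in the 74 Lrat Apcdd1 barcodes against 147 and 113 CPM in the other BECs. *Vwf*, the clotting factor stored by venous and large-vessel endothelium, was at 732 and 892 CPM against 513 and 347 CPM, while *Nr2f2*, which specifies veins, was at 57.4 and 86.3 CPM against 159.6 and 93.4 CPM. Of the 10 venous genes outside the rule, 1 was 2-fold higher and 1 at most 0.5-fold in both libraries, with a median of 0.733 and 1.14. *Tgfbr3* (1.82-fold and 1.57-fold), *Smad1* (1.70-fold and 1.74-fold), and *Tgfbr2* (1.58-fold and 1.44-fold), which encode parts of TGF-β and BMP receptor signaling, were above 1 in both libraries, each below 2-fold, while the median over the 14 tested genes of the BMP list was 0.890 and 0.926. *Insr*, the insulin receptor, was at 2.14-fold and 1.75-fold.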
